A study of Homo sapiens with 4 samples.

Results

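The H/ACA small nucleolar RNAs and the small RNAs of Cajal bodies were described in total RNA of the human cell line BLaER1 before and after its differentiation. Their rows were taken from the deposited expression table by symbol, SNORA followed by a digit or SCARNA, and by a TPM (an abundance per transcript length, scaled to the same sum in each library) above 0 in all 4 libraries. The rule gave 69 members, 57 SNORA and 12 SCARNA rows, among 476 rows with such symbols and 58302 rows in all. The members cover 68 symbols, because SNORA17B stands on a pair of rows. The line derives from a B cell leukaemia and holds a fusion of the transcription factor C/EBPα with the oestrogen receptor's hormone-binding part, so oestradiol switches the factor on. All cells were grown in RPMI medium with FCS, L-glutamine and penicillin-streptomycin. The differentiated group, 2 libraries, was kept for 5 to 6 days in 100 nM oestradiol together with the cytokines IL-3 and M-CSF. A concentration of 10 ng/ml is written once, before IL-3. For the undifferentiated group, 2 libraries, no such treatment is labelled. Every library comes from this single line. Separate cultures are not labelled for the replicates, so adjusted p-values below reflect library-to-library spread that may be technical.

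H/ACA RNAs fold into hairpins followed by a hinge with the H box and a tail with the bases ACA, and they guide the enzyme dyskerin to uridines that become pseudouridines. SNORA RNAs act in the nucleolus, mostly on ribosomal RNA, while SCARNA RNAs stay in Cajal bodies and guide the modification of spliceosomal small nuclear RNAs. Most human members are cut out of introns of other genes. A core of the proteins dyskerin, NHP2, NOP10 and GAR1 binds and stabilises those of the H/ACA class.

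The sequences below show the RNAs on which the results turn: the abundant U17 pair SNORA73A and SNORA73B, the most abundant member SNORA48, the member with the largest positive difference (SNORA63), members that were lower after differentiation (SNORA37, SNORA13), the pair SNORA21 and SNORA21B from 1 host gene, and the Cajal body RNA SCARNA4. They are the transcripts of GENCODE release 29, 5′ to 3′, written as DNA. Capitals mark the letters ANANNA nearest the middle, where an H box lies, and the ACA close to the 3′ end.
SNORA73A: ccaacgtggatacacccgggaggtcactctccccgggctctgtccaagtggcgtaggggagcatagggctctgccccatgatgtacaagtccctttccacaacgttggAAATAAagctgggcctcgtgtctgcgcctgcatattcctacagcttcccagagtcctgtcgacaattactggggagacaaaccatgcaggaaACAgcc
SNORA73B: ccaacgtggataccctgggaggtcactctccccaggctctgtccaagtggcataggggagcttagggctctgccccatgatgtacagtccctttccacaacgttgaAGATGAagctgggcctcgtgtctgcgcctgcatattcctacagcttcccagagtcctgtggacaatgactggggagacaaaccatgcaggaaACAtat
SNORA48: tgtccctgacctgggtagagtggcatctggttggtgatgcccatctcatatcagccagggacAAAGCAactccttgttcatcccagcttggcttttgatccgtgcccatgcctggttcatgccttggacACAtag
SNORA63: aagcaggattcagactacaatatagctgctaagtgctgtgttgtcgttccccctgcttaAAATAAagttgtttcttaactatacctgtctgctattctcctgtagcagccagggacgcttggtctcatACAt
SNORA37: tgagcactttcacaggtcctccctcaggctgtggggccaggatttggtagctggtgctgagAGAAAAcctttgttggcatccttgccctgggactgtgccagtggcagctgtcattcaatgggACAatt
SNORA13: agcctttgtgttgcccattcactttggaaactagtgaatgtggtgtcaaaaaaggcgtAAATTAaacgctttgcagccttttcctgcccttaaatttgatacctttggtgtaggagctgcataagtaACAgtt
SNORA21: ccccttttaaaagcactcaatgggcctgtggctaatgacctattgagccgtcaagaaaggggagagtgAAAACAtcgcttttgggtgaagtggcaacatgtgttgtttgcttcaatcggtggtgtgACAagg
SNORA21B: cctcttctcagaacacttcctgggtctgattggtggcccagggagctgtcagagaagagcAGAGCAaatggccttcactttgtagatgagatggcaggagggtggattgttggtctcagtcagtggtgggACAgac
SCARNA4: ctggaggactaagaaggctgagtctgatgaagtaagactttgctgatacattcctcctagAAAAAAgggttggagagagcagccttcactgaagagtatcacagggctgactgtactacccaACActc

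In every sequence shown the ACA is followed by 3 bases, except in SNORA63, where 1 base follows. Among the 55 SNORA members with 1 transcript, 51 held ANANNA in the middle (35 to 65% of the length), 52 held ACA starting 4 to 9 bases before the end, and 48 (87.3%) held both, read on the transcript strand. Of 364 other SNORA rows 55.8% held both, and of 369 rows of C/D box snoRNAs, the class that guides methylation, 1.63% did. Only 3 of the 12 SCARNA members held both motifs. By contrast, TGATGA together with CTGA, letters of the C and D boxes, stood in 10 of 12 SCARNA members, in 0 of 55 SNORA members and in 65.9% of C/D rows. TGAG, the letters of the Cajal body box, was present in 12 of 12 SCARNA and 24 of 55 SNORA members and, being short, also in 81% of C/D rows. The 12 SCARNA members include SCARNA15, whose 4325 nt transcript holds all of these letters except the ACA near its end. These matches describe letters and do not locate a working box.

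Library facts bear on all values. RN7SK, a small nuclear RNA, made up 20.9% and 23.5% of differentiated and 35.5% and 41.7% of undifferentiated TPM, and since TPM sums to the same total in each library, every other row's TPM moves with such a share. Short rows were missing unequally: among rows with a single annotated transcript, the shortest length above 0 was 102 and 109 nt in the differentiated libraries and 128 and 122 nt in the undifferentiated libraries. No row with a single transcript under 128 nt was above 0 in undifferentiated replicate 1, against 82 and 32 of 5855 such rows in the differentiated libraries and 10 in undifferentiated replicate 2. Members therefore are 128 nt long or more, and 48 of them are under 150 nt. Their part in the differences below was not tested, and values are also given for the 21 members of at least 150 nt. Of the cell type lists, 8 of 8 macrophage genes were called higher and 9 of 9 pre-B cell genes lower after differentiation, and of 9 genes of T, NK, erythroid cells and fibroblasts 7 stayed below 1 TPM in every library, with sums over the list of 2.42 and 1.52 TPM in the differentiated and 6.20 and 2.72 TPM in the undifferentiated libraries. Of the other two, NKG7 was not tested, and PDGFRB, a receptor of fibroblasts and pericytes, had 0.87 and 0.41 TPM against 4.99 and 2.24 TPM and was called lower (adjusted p = 0.00629, limma). The part of such cells in the results was not tested.

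TPM carries no depth, but low values give a sense of it. Among rows of 135 nt most low values were whole multiples, within 0.02, of 1 step: 9.70 and 11.6 TPM in the differentiated and 25.7 and 17.3 TPM in the undifferentiated libraries. This held for 10 of 13, 8 of 11, 8 of 11 and 5 of 7 rows of up to 30 steps. SNORA48 held 1062, 1338, 145 and 225 such steps. SNORA55, whose host PABPC4 makes a poly(A)-binding protein, held 20.0 and 3 steps in the differentiated and 3 and 5 steps in the undifferentiated libraries. A member under 100 TPM can thus rest on very few steps, and its difference is correspondingly unsure.

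The members together took a larger share of the library after differentiation. Their summed TPM was 6.19% and 6.49% of the total after differentiation and 4.71% and 4.49% before it, means of 6.34% ± 0.214 and 4.60% ± 0.155 (SD, n = 2), a ratio of 1.38. The stages did not overlap, and the exact permutation test of 2 against 2 libraries gave its smallest possible two-sided p of 0.33. Without SNORA48 the shares were 5.16%, 4.94%, 4.34% and 4.10%. Members of at least 150 nt made up 1.62% and 1.61% against 0.781% and 0.741%, a ratio of 2.12. In bulk RNA a change in the number of cells that make an RNA and a change in the RNA per cell cannot be told apart.

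Member by member, 36 of the 68 members that passed the filter of 1 TPM in at least 2 libraries were higher in both differentiated libraries than in either undifferentiated one. A further 13 were lower in the same sense, and 19 overlapped. Over all 10180 rows tested, 31% were higher and 39% lower without overlap (29.2% and 39.9% of rows above 0 in all 4 libraries). At an adjusted p below 0.05 (limma, Benjamini-Hochberg over all rows) 30 members were called higher and 9 lower, 39 in all, where 18.6% of all rows were called higher, 22.8% lower and 41.4% in either direction. Since the membership rule used these same TPM values, the counts are a description. The median difference of log2(TPM + 1) over the 68 members was 0.77, with a range of -3.35 to 4.71, against a median of -0.14 over all rows. Among the 20 tested members of at least 150 nt, 10 were higher, 2 lower and 8 overlapped, with a median of 0.52. Scaled to the summed TPM of the snoRNA rows instead, 27 members were higher, 21 lower and 20 overlapped, where 22% of all rows were higher and 54% lower. The members themselves made up 89.3% and 92.6% of that sum in the differentiated and 97.3% and 96.6% in the undifferentiated libraries. This scale therefore sets them largely against their own total, and a shift common to all members is largely removed. Scaled to the protein-coding rows, 46 members were higher, 9 lower and 13 overlapped, where 48.8% of all rows were higher and 29.5% lower.

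**Figure D1:**
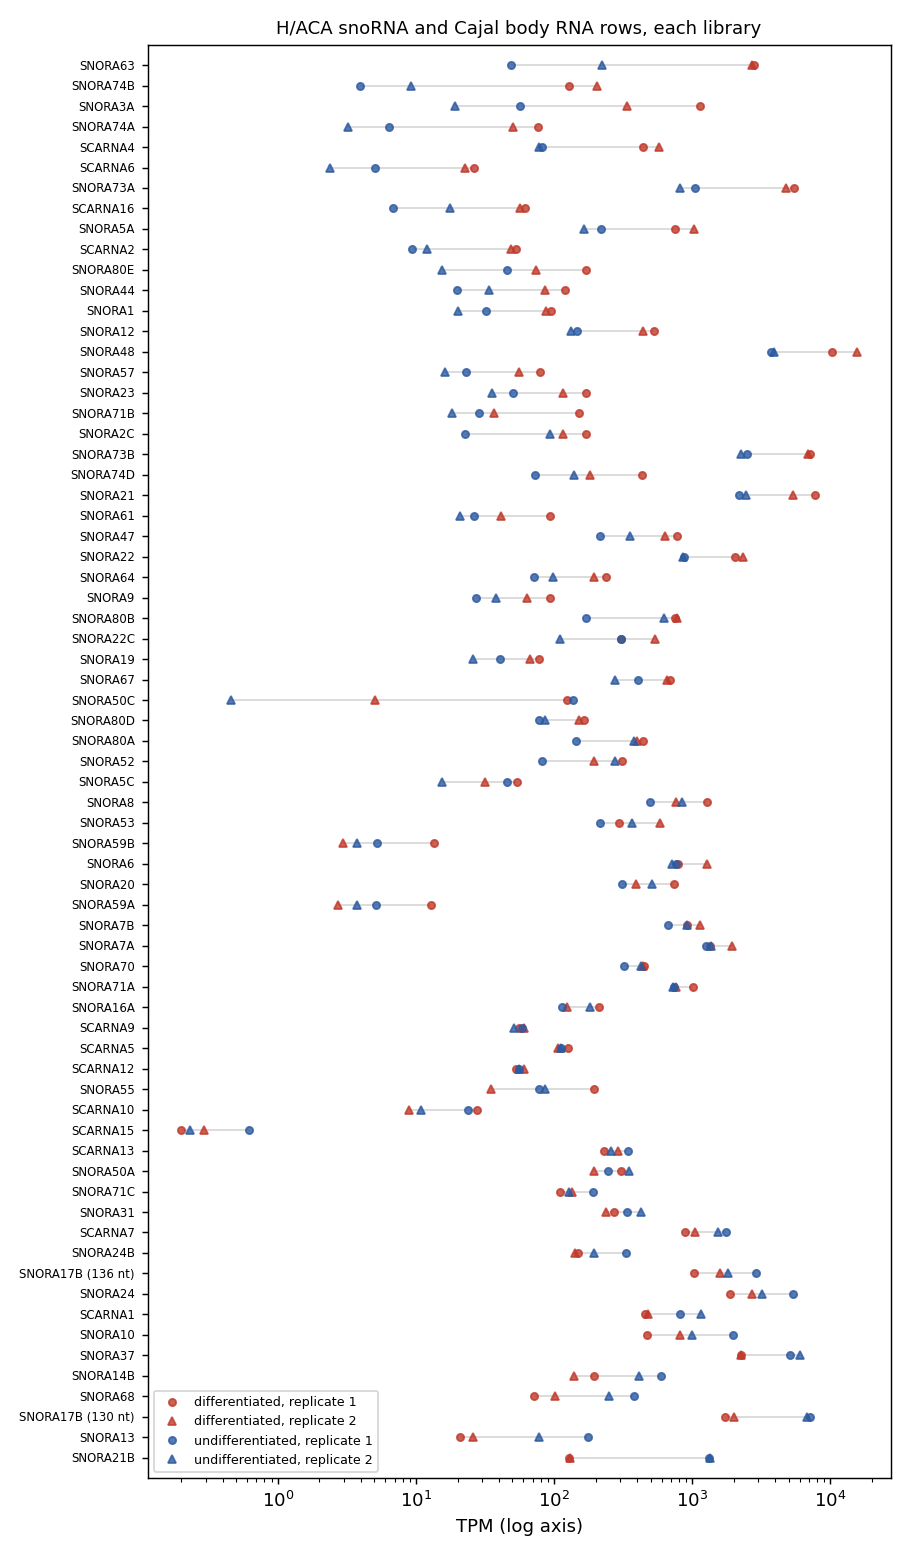
Each row is a member and each point its TPM in 1 library on a log axis, with colour for the stage and shape for the replicate. Members are ordered by their log2 difference, from SNORA63 at 4.71 to SNORA21B at -3.35, and the stages separate at both ends and mix in the middle.

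Among guides of ribosomal RNA modification, the most abundant member was SNORA48, a guide for 28S rRNA that lies in EIF4A1. Its TPM was 10302 and 15535 in the differentiated and 3728 and 3892 in the undifferentiated libraries, 3.39 times higher on average. SNORA21, another 28S guide, had 7715 and 5370 TPM against 2188 and 2457 TPM. SNORA22 had 2058 and 2340 TPM against 872.4 and 859.3 TPM. SNORA48, SNORA21 and SNORA22 were higher in each differentiated library than in either undifferentiated one. SNORA22C, 98.5% identical to SNORA22, had 302.7 and 541.9 TPM against 303.9 and 109.7 TPM, an overlap. The division of reads between these copies is uncertain. Abundant members that were lower are given further below. The 5 most abundant members made up 47.1%, 49.4%, 43.8% and 47.7% of the members' TPM, shares that overlapped between stages.

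SNORA73A and SNORA73B, also known as U17, act in the cleavage of the ribosomal RNA precursor rather than as known guides, and both lie within RCC1 and SNHG3. SNORA73A had 5453 and 4740 TPM in the differentiated and 1052 and 818.8 TPM in the undifferentiated libraries, a log2 difference of 2.45. SNORA73B had 7151 and 6867 TPM against 2490 and 2239 TPM, a log2 difference of 1.57. Both were higher after differentiation without overlap, and at 206 and 204 nt both are longer than the shortest lengths seen in any library. The ratio of SNORA73B to SNORA73A was 1.31 and 1.45 after and 2.37 and 2.74 before differentiation. Aligned end to end the pair is 93.2% identical (192 of 206 columns), so the division of reads between them is uncertain.

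The largest positive differences were found for SNORA63, SNORA74B, SNORA3A and SNORA74A. SNORA63, in an intron of EIF4A2, had 2782 and 2729 TPM in the differentiated and 48.75 and 220.6 TPM in the undifferentiated libraries, 20.5 times higher on average. SNORA3A, in RPL27A, had 1132 and 336.7 TPM against 56.71 and 19.05 TPM, with a wide spread between replicates at both stages. The stages stayed apart for each of them. SNORA74B and SNORA74A belong to the U19 RNAs and are near 200 nt long. SNORA74B, in ATP6V0E1, had 127.5 and 204.3 TPM against 3.95 and 9.14 TPM. SNORA74A, in MATR3 and SNHG4, had 75.87 and 50.82 TPM against 6.33 and 3.24 TPM. Their undifferentiated values were all below 10 TPM. SNORA74D, which shares the host MATR3, had 430.7 and 183.4 TPM against 72.55 and 139.2 TPM, so all 3 U19 members were higher after differentiation. SNORA74D was not called with a pseudocount of 10, with median-of-ratios scaling or scaled to the snoRNA rows. The SNORA74C-2 row, listed at 0 in differentiated replicate 2 and so not a member, went the other way. It had 4.3 and 0 TPM against 19.74 and 9.14 TPM. SNORA74D was 5.68 and 3.61 times SNORA74A in the differentiated and 11.5 and 43.0 times in the undifferentiated libraries. These rows are 141 and 198 nt long. Short rows were missing unequally between the libraries, and the part of length in this ratio was not tested.

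The opposite direction was seen for SNORA21B, SNORA13, SNORA17B, SNORA68, SNORA14B and SNORA37. SNORA21B had 128.9 and 131.2 TPM in the differentiated and 1330 and 1343 TPM in the undifferentiated libraries, 10.3 times lower on average, with replicates that lay close together. SNORA13, a guide for 18S rRNA in EPB41L4A-AS1, had 21.01 and 25.71 TPM against 175.0 and 77.36 TPM. SNORA68, a 28S guide, had 71.07 and 101.1 TPM against 377.5 and 248.9 TPM. All libraries of the differentiated stage were below all of the other. SNORA14B, an 18S guide in TOMM20, had 193.9 and 139.3 TPM against 591.8 and 415.2 TPM, and held 20.0, 12, 23 and 24 steps in the same order. Steps are not scaled to the library, and on them the stages lay closer than in TPM. SNORA37, in MBD2, was an abundant lower member with 2255 and 2263 TPM against 5131 and 5994 TPM. SNORA24, an 18S guide in SNHG8, had 1888 and 2709 TPM against 5340 and 3210 TPM, a log2 difference of -0.87. Scaled to the snoRNA rows, the log2 differences of SNORA37 and SNORA24 were -1.85 and -1.43, and those of SNORA48 and SNORA21 were 1.18 and 0.92. Scaled to the protein-coding rows, SNORA37 and SNORA24 had -0.73 and -0.31 and SNORA48 and SNORA21 had 2.30 and 2.04, in the same directions. SNORA37 and SNORA24 are among the 9 members called lower, but were not called on the protein-coding scale or with median-of-ratios scaling.

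SNORA17B has a 130 nt row that lies wholly inside a 136 nt row on the same strand, so the reads of both were divided by the authors' software. The shorter row had 1733 and 2016 TPM in the differentiated and 7099 and 6833 TPM in the undifferentiated libraries. The longer row had 1025 and 1602 TPM against 2906 and 1807 TPM. Both rows were lower after differentiation, within SNHG7.

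A pair of host genes each held members that went in opposite directions. In RPL23, a gene for a ribosomal protein, SNORA21 was higher and SNORA21B lower, so their ratio was 59.8 and 40.9 in the differentiated and 1.65 and 1.83 in the undifferentiated libraries. RPL23 itself had 200 and 211 TPM against 378 and 304 TPM, with an adjusted p of 0.0973 (limma). The sequences of SNORA21 and SNORA21B, shown above, are identical in 87 of 140 aligned columns (62.1%). In RPS2, SNORA64 had 236.8 and 194.5 TPM against 72.13 and 99.00 TPM, and SNORA10 had 473.8 and 813.8 TPM against 1979 and 998.2 TPM. SNORA64 was higher and SNORA10 lower after differentiation. The ratio of SNORA64 to SNORA10 was 0.500 and 0.239 after and 0.0365 and 0.0992 before. RPS2 had 164 and 230 TPM against 254 and 179 TPM, which overlapped. A ratio of members within a library does not depend on the scaling of that library.

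**Figure D2:**
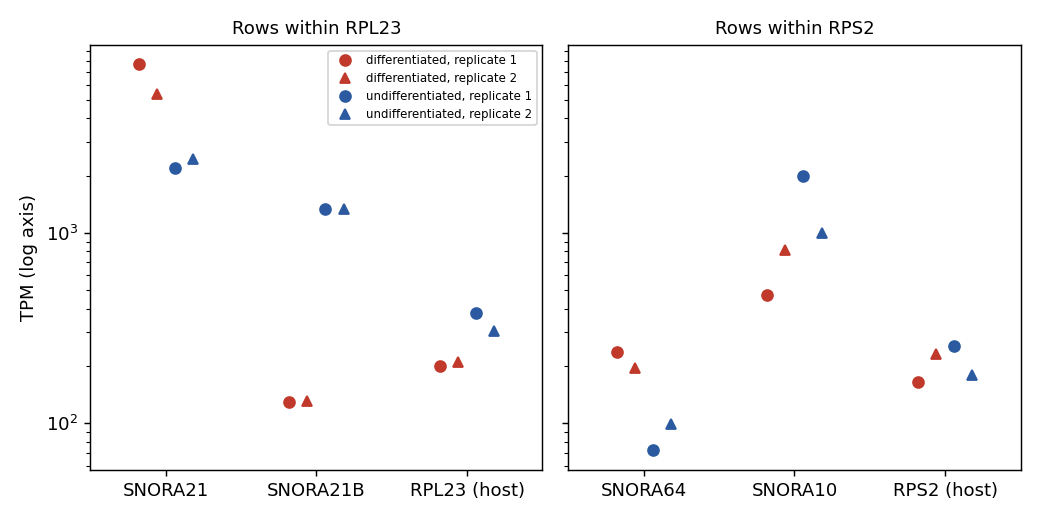
TPM on a log axis in each library for the members and the host gene at RPL23 (left) and RPS2 (right), with colour for the stage and shape for the replicate. SNORA21 and SNORA64 lie higher, SNORA21B and SNORA10 lower in the differentiated libraries, and the libraries of the stages overlap for RPS2.

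Of the other hosts with several members, SNHG12, TAF1D, TBRG4, SNHG17 and ATG16L1 held both higher and overlapping members, and in KHDC4, MATR3, RCC1 and EIF4A1 both members were higher. SNHG12, a long noncoding host, holds 3 of them. SNORA44 had 119.7 and 85.89 TPM in the differentiated and 19.84 and 34.05 TPM in the undifferentiated libraries, and SNORA61 had 93.61 and 41.17 TPM against 26.11 and 20.86 TPM. SNORA16A, from the same gene, had 212.6 and 123.4 TPM against 113.2 and 182.3 TPM. The first pair was higher without overlap and SNORA16A overlapped, with log2 differences of 1.92, 1.38 and 0.17. In TAF1D, a gene for a factor of ribosomal RNA transcription, SNORA1 had 94.24 and 88.15 TPM against 32.15 and 20.17 TPM, while SNORA8 had 1281 and 762.6 TPM against 498.7 and 849.5 TPM. In TBRG4, SNORA5A had 756.7 and 1026 TPM against 219.0 and 164.6 TPM, while SNORA5C had 53.76 and 31.57 TPM against 45.58 and 15.53 TPM. SNORA1 and SNORA5A were thus higher without overlap, and SNORA8 and SNORA5C overlapped. In SNHG17, SNORA71B had 151.3 and 36.64 TPM against 28.44 and 18.28 TPM, SNORA71A had 1009 and 769.4 TPM against 739.2 and 731.3 TPM, and SNORA71C had 111.0 and 134.3 TPM against 191.7 and 128.0 TPM. The SNORA71B row has more than 1 annotated transcript, and SNORA71C overlapped. In EIF4A1, SNORA67 had 687.0 and 656.2 TPM against 403.7 and 275.0 TPM beside the higher SNORA48.

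Families of similar copies share reads that cannot be assigned to a copy with confidence. SNORA7A and SNORA7B, 98.6% identical, had a ratio of 1.46 and 1.69 after and 1.88 and 1.51 before differentiation. SNORA7A, in RPL32, had 1343 and 1941 TPM against 1256 and 1370 TPM, an overlap. The SNORA80 family has 4 members in 4 host genes. SNORA80A had 438.0 and 397.8 TPM in the differentiated and 145.2 and 376.8 TPM in the undifferentiated libraries, and SNORA80B had 754.8 and 773.4 TPM against 169.4 and 622.5 TPM. SNORA80D had 164.8 and 151.0 TPM against 77.19 and 86.51 TPM, and SNORA80E had 170.2 and 73.65 TPM against 45.58 and 15.53 TPM. All 4 were higher without overlap, but SNORA80A and SNORA80B were not called. In steps SNORA80D held 17.0, 13, 3 and 5, so its undifferentiated values rest on few steps. SNORA80E, with the largest difference of the 4, had the same undifferentiated values as SNORA5C, which is also 137 nt long. Steps were not computed at that length, and such equal low values can rest on few steps too. For SNORA80A and SNORA80B the undifferentiated replicates differ from each other more than replicate 2 differs from the differentiated libraries.

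The Cajal body RNAs held higher, lower and overlapping members. Of 11 tested SCARNA members 4 were higher and 2 lower without overlap and 5 overlapped, with a median log2 difference of 0.05, while of the 57 SNORA members 32 were higher, 11 lower and 14 overlapped, with a median of 0.94. Over all rows tested 31% were higher and 39% lower, and the difference between the SCARNA and SNORA members was not tested. The SCARNA rows took 3.89% and 4.25% of the members' TPM in the differentiated and 6.93% and 7.29% in the undifferentiated libraries. This share was lower after differentiation without overlap, and the exact permutation p was 0.33, the smallest possible.

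Among guides for U2 snRNA, SCARNA4 had 439.6 and 573.0 TPM in the differentiated and 81.43 and 78.01 TPM in the undifferentiated libraries, 6.35 times higher. SCARNA2 had 53.45 and 48.58 TPM against 9.39 and 11.98 TPM. SCARNA1 went the other way, with 452.3 and 475.6 TPM against 815.2 and 1149 TPM. SCARNA9 had 55.93 and 60.57 TPM against 58.56 and 50.87 TPM, which overlapped. As deposited, the U2 guides therefore did not share a direction. SCARNA1 had a log2 difference of -1.61 scaled to the snoRNA rows and -0.50 scaled to the protein-coding rows. It was not called on the protein-coding scale or with median-of-ratios scaling.

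Among guides for U5 snRNA, SCARNA6 had 26.24 and 22.70 TPM in the differentiated and 5.02 and 2.40 TPM in the undifferentiated libraries. SCARNA5, which lies in the same host ATG16L1, had 126.9 and 106.6 TPM against 111.6 and 113.1 TPM. SCARNA12, in PHB2, had 53.31 and 60.67 TPM against 55.33 and 55.32 TPM. SCARNA6 was higher without overlap, and the levels of the other two overlapped. SCARNA10 had 27.63 and 8.98 TPM against 23.65 and 10.90 TPM, a spread between replicates larger than any between stages. For SCARNA13, a guide for U2 and U5, the values were 229.2 and 289.0 TPM against 340.3 and 259.3 TPM. Scaled to the snoRNA rows, SCARNA5, SCARNA9 and SCARNA12 had negative log2 differences of -0.50, -0.46 and -0.51. Scaled to the protein-coding rows they had 0.61, 0.65 and 0.60, so the sign of their difference depends on the scale.

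Of the U1 guides, SCARNA7 had 880.8 and 1055 TPM in the differentiated and 1757 and 1528 TPM in the undifferentiated libraries, which made it the most abundant SCARNA member. SCARNA16 had 61.95 and 56.72 TPM against 6.79 and 17.76 TPM. SCARNA7 was lower and SCARNA16 higher without overlap. SCARNA7 was not called as deposited, and its log2 difference was -1.32 scaled to the snoRNA rows and -0.20 scaled to the protein-coding rows. SCARNA15 sat at the edge of the rule with 0.20, 0.29, 0.62 and 0.23 TPM; in GENCODE 29 its identifier belongs to a transcript of 4325 nt, and it did not pass the filter.

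C/D box snoRNAs chosen by the same rule served for comparison, but only 9 of 375 rows were above 0 in all 4 libraries. Of these 9, 5 were higher after differentiation, 0 lower and 4 overlapped, with a median log2 difference of 1.45. Over all rows tested 31% were higher and 39% lower. The 9 rows are annotated at 134 nt or more. SNORD3A, the U3 RNA needed for 18S processing, had 3840 and 2795 TPM against 685.5 and 1014 TPM. The members made up 89.3% and 92.6% of the summed TPM of members and C/D rows in the differentiated and 97.3% and 96.6% in the undifferentiated libraries. This split is by symbol, so SCARNA members with C and D box letters count as members. SCARNA7, which holds those letters and no ACA near its end, had 880.8 and 1055 TPM against 1757 and 1528 TPM. The C/D rows summed to 7405 and 5174 TPM against 1303 and 1604 TPM. The members' share was lower after differentiation, with an exact permutation p of 0.33. With rows listed at 0 in some libraries kept, it was 68.8% and 80.9% against 97.4% and 97.5%. Short rows were missing unequally between the libraries, as given above, and their part in this share was not tested.

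Host genes were not part of the rule and could be tested. The 68 members with a host lie in 54 genes, of which 49 were tested; 2 were called higher (ATP6V0E1 and TPT1), 18 lower and 29 were not called, with a median log2 difference of -0.66, where 18.6% of all rows were called higher and 22.8% lower and the median was -0.14. RCC1, host of the U17 pair, had 2.62 and 2.78 TPM in the differentiated and 10.5 and 8.59 TPM in the undifferentiated libraries and fell by 1.51 on the log2 scale (adjusted p = 0.00639, limma). EIF4A1, a translation initiation helicase and host of SNORA48, had 66.8 and 56.7 TPM against 250 and 140 TPM (log2 difference -1.59, adjusted p = 0.00436, limma). In both cases the host assigned here fell while its members were higher. SNORA73A and SNORA73B also lie in SNHG3, and SNORA74A and SNORA74D in SNHG4. Values of these SNHG genes are not given here. MATR3, a nuclear matrix protein gene, fell with an adjusted p of 0.0242 and SNHG8 with an adjusted p of 0.000459 (limma). EIF4A2, host of SNORA63, had 31.8 and 26.5 TPM against 54.0 and 22.2 TPM, which overlapped. ATP6V0E1, a subunit gene of the vacuolar proton pump, had 21.3 and 24.0 TPM against 7.14 and 4.09 TPM and rose with its member SNORA74B (log2 difference 1.87, adjusted p = 0.00191, limma). Leaving out either differentiated library ended all 20 host calls. Leaving out undifferentiated replicate 2 gave 30.

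Set side by side, the 36 members that were higher lay 13 times in a host that was called lower, 1 time in a host called higher, 20 times in a host not called and 2 times in a host not tested. The 13 members that were lower lay 1 time in a host called lower (SNORA24 in SNHG8), 1 time in a host called higher (the SNORA31 row in TPT1, the gene of the tumour protein TCTP), 10 times in a host not called and 1 time in a host not tested. Of the 19 that overlapped, 8 lay in a host called lower. Of all 49 tested hosts 18 were called lower, a share near that of the higher members, so the counts are not a trait of those members. Among members in ribosomal protein genes 5 were higher, 3 lower and 2 overlapped. Among members assigned to SNHG genes, which serve mainly as snoRNA hosts, 5 were higher, 3 lower and 4 overlapped. SNORA73A, SNORA73B, SNORA74A, SNORA74D and SCARNA16 also lie within SNHG genes but were assigned to protein-coding hosts, and each was higher.

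**Figure D3:**
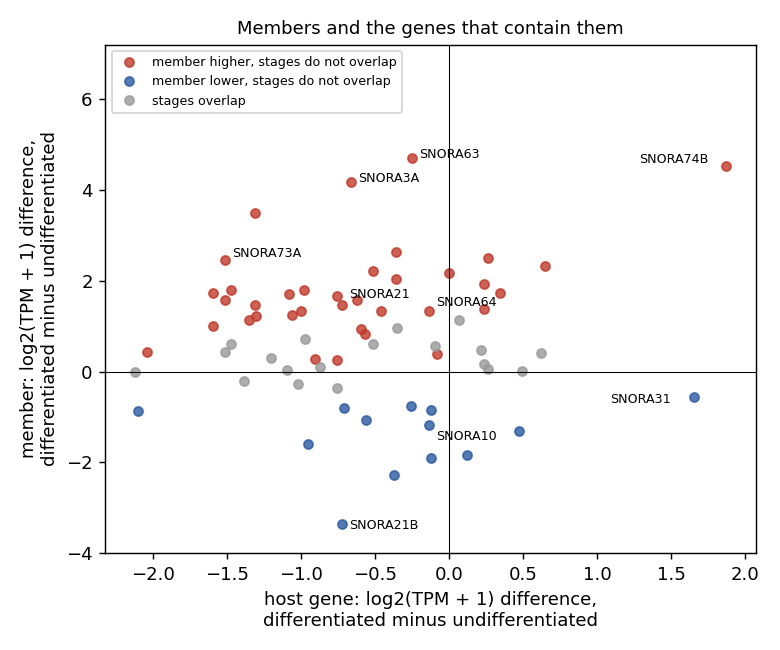
Each point is a member, with the log2(TPM + 1) difference of its host gene on the x axis and its own difference on the y axis, differentiated minus undifferentiated. Colours mark whether the libraries of the stages overlapped for the member. Many members of each colour lie left of 0, where the host was lower (median of the 49 tested hosts -0.66). SNORA74B at upper right is in a host that rose.

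Of the 4 genes for core proteins of the H/ACA particle, 3 fell. DKC1, the gene of the pseudouridine synthase dyskerin, had 4.67 and 3.52 TPM in the differentiated and 24.8 and 14.6 TPM in the undifferentiated libraries (log2 difference -1.99 ± 0.403 SE, adjusted p = 0.00148, limma). NHP2 had 6.49 and 7.68 TPM against 40.4 and 28.6 TPM (log2 difference -2.12, adjusted p = 0.000614, limma). GAR1 had 1.83 and 0.56 TPM against 6.69 and 5.24 TPM (log2 difference -1.72, adjusted p = 0.00423, limma). The stages were separate for each of these. NOP10 had 27.1 and 42.8 TPM against 44.3 and 40.5 TPM, which overlapped (adjusted p = 0.549, limma). Without differentiated replicate 1 the adjusted p of DKC1, NHP2 and GAR1 was 0.110, 0.0989 and 0.110, and without replicate 2 it was 0.151, 0.0769 and 0.313, all in the same direction.

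Of 9 genes for assembly and trafficking, 5 fell and 4 were not called. TCOF1, the gene of treacle, which serves ribosomal RNA transcription, had 4.03 and 6.38 TPM in the differentiated and 46.5 and 38.5 TPM in the undifferentiated libraries (log2 difference -2.83, adjusted p = 7.85e-05, limma), and it kept its call without either differentiated library. NOLC1, the gene of the shuttling chaperone Nopp140, had 4.41 and 4.95 TPM against 34.9 and 17.5 TPM (log2 difference -2.18, adjusted p = 0.000949, limma). RUVBL2 and RUVBL1, a pair of ATPases of the assembly machinery, fell with adjusted p of 0.0013 and 0.0257 (limma). C12orf45, an assembly gene that is not particular to H/ACA particles, fell with an adjusted p of 0.0413 (limma). NAF1, which holds the place of GAR1 in the immature particle, had 1.99 and 2.83 TPM against 7 and 3.63 TPM (adjusted p = 0.119, limma). SHQ1, the dyskerin chaperone, had 1.00 and 0.97 TPM against 2.67 and 0.87 TPM, which overlapped.

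**Figure D4:**
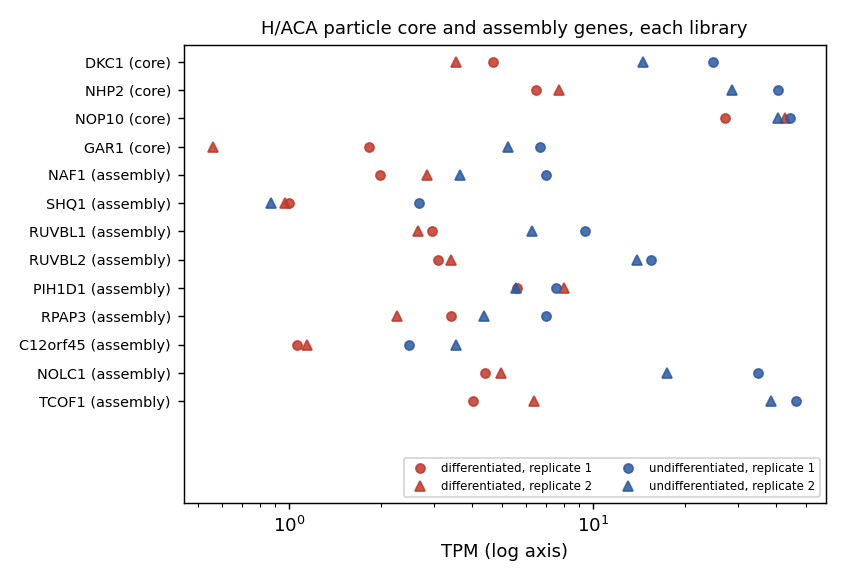
TPM on a log axis in each library for 4 core genes of H/ACA particles and 9 genes listed for assembly. Colour marks the stage and shape the replicate. For DKC1, NHP2, GAR1, NOLC1 and TCOF1 both differentiated libraries lie left of both undifferentiated libraries, and for NOP10 the stages overlap.

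Of 13 tested Cajal body and SMN complex genes 3 were called lower and 0 higher, a share near the 22.8% of all rows called lower. WRAP53, the gene of the protein that binds the Cajal body box and brings SCARNA RNAs and telomerase RNA to Cajal bodies, had 0.53 and 0.37 TPM against 1.47 and 1.77 TPM (log2 difference -0.85, adjusted p = 0.0104, limma). SMN2 (adjusted p = 0.0371) and GEMIN5 (adjusted p = 0.0337, limma) also fell. SMN2 and SMN1 are near-identical copies whose values are uncertain. COIL, the gene of the Cajal body scaffold coilin, had 1.47 and 1.84 TPM against 4.39 and 2.42 TPM (adjusted p = 0.158, limma). Of 7 genes for the processing of RNA 3′ ends, PABPN1 (adjusted p = 0.0159) and EXOSC3 (adjusted p = 0.0295, limma) fell and 5 were not called.

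Telomerase shares the H/ACA core, since its RNA ends in an H/ACA domain. TERC, that RNA, had 9.96 and 15.3 TPM in the differentiated and 31.8 and 21.0 TPM in the undifferentiated libraries, lower without overlap (adjusted p = 0.0586, limma). TERT, the reverse transcriptase, had 0.02 and 0.32 TPM against 1.15 and 1.00 TPM and fell (adjusted p = 0.00368, limma). TEP1, a telomerase- and vault-associated protein gene, had 6.11 and 5.16 TPM against 1.85 and 1.56 TPM and was the only gene of this list that rose (adjusted p = 0.0144, limma). In all, 14 of 36 tested genes of the core, assembly, Cajal body, processing and telomerase lists fell, 1 rose and 21 were not called. Their median log2 difference was -0.84, where 22.8% of all rows were called lower. These lists are named H/ACA protein genes below and include C12orf45. Without differentiated replicate 1 or 2, 1 and 2 of the 15 calls were made, and without undifferentiated replicate 2, 31. Scaled to protein-coding rows, WRAP53, SMN2, PABPN1 and C12orf45 lost their calls, with adjusted p of 0.0511, 0.102, 0.0581 and 0.130 (limma).

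Enzymes that make pseudouridine without a guide RNA form a separate list of 12 genes. Of 9 tested, 3 fell: TRUB2 (adjusted p = 0.0226), PUS7L (adjusted p = 0.038) and PUS7 (adjusted p = 0.0493, limma), and 0 rose, where 22.8% of all rows were called lower. PUS7 had 1.38 and 0.97 TPM against 5.86 and 2.10 TPM. PUS1 had 1.14 and 1.15 TPM against 3.60 and 1.81 TPM (adjusted p = 0.103, limma). All 3 calls were lost without either differentiated library, and scaled to protein-coding rows PUS7 and PUS7L were no longer called (adjusted p = 0.0817 and 0.0892, limma).

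Rows at the edge of the rule show what it left out. Of the other 407 rows, 330 were listed at 0 in all 4 libraries, 19 in 3, 26 in 2 and 32 in exactly 1, of which 17 were at 0 in undifferentiated replicate 1 alone and 10 in undifferentiated replicate 2 alone. Of those 17, 6 are annotated at under 128 nt. SNORA27 (126 nt) had 5186 and 7662 TPM in the differentiated libraries, 0 in undifferentiated replicate 1 and 16414 TPM in undifferentiated replicate 2, so a listed 0 need not mean that the RNA was missing. SNORA81 (178 nt) had 307.7 and 139.4 TPM, 0 and 5.81 TPM, and SNORA62 (153 nt) 662.7, 88.13, 0 and 10.83 TPM. Both are longer than every length floor given above. Just inside the rule, SNORA50C had 123.7 and 5.04 TPM in the differentiated and 137.2 and 0.46 TPM in the undifferentiated libraries, where replicates of both stages were far apart.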

How the data were processed

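The authors deposited TPM in 1 table with a column per library and 58302 rows. Per the submitters' processing notes they used Trimmomatic, STAR and RSEM. No coordinates are printed, because the build is not given in the sources used here. The same holds for versions, annotation and strand setting. RSEM divides reads among overlapping or similar rows, and the table does not separate a mature snoRNA from its precursor. Depth is unknown, and no counting interval was computed.

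Columns were assigned to samples by title. TPM was transformed to log2(TPM + 1), a scale that understates changes of low rows. Rows with at least 1 TPM in at least 2 libraries (10180) were compared by limma 3.58.1 in R 4.3.3 (mean-variance trend, two-sided), with Benjamini-Hochberg adjustment over all of them; calls have an adjusted p below 0.05. The fit had 2 residual and 10.9 prior degrees of freedom and was tested on simulated data. Single values were compared by exact permutation tests.

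Lengths, hosts and sequences came from GENCODE release 29, which held 58039 of the IDs and need not be the authors' annotation. A host is a gene of another name whose body holds the member on the same strand. Where several genes did, the shortest protein-coding gene was taken, or else the shortest gene. SNHG3, SNHG4 and SNHG20, which hold members, are therefore not among the hosts. Hosts named KHDC4 and CSKMT in GENCODE are KIAA0907 and METTL12 in the table.

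The members and gene lists were chosen with earlier results of these data known. Members named are the 8 most abundant, the 6 largest differences in each direction without overlap, all SCARNA members, at most 3 families in full, and rows at the edge of the rule. The 4 core genes and called list genes are named too. Members of hosts with several members were chosen after their values were seen, where that rule does not select them. So were TERC, COIL, NAF1, SHQ1, PUS1, SNORA10, SNORA64, SNORA24, SNORA55, SNORA22, SNORA22C and SNORD3A. Replicate numbers were checked for pairing: the correlation of the replicate differences between the stages was -0.0237 over the tested rows.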

Additional observations from a re-analysis of the deposited data

How the results depend on the processing

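Leaving out 1 library gave 1271 to 5652 called rows (4216 with all), 9 to 40 called members (39 with all; 9 without differentiated replicate 1 and 10 without replicate 2), 1 to 31 H/ACA protein genes (15 with all), 0 to 7 stand-alone synthase genes (3 with all) and 0 to 30 host genes (20 with all). The member median then ranged from 0.59 to 1.04, the difference in summed share from 1.58 to 1.89 percentage points, and the difference in the share of snoRNA TPM from -7.62 to -4.32 points. A lone library was assumed to vary like the other stage. With no filter on low values 1260 rows, 10 members, 3 H/ACA protein genes, 0 synthase genes and 2 host genes were called (29186 rows tested), and with a filter of 5 TPM 2436 rows of 4511, with 0 synthase genes tested or called. Quantile normalization called 24 H/ACA protein genes and 6 synthase genes with a member median of 0.999, and median-of-ratios scaling called 23 and 6. A pseudocount of 10 left 1 synthase gene. Rescaling to protein-coding rows left 1 as well and gave a member median of 1.28. Rescaling to snoRNA rows gave 22 called members, 11 in each direction, and a member median of 0.161. This fit held only the members and the C/D rows above 0 in all 4 libraries, with a median of 0.22. Members made up most of its scaling sum, so a shift common to them is largely removed. On this scale 21 members were lower without overlap, against 13 as deposited. The fit was not run for the gene lists. Called rows split into 1890 higher and 2326 lower as deposited (10180 rows tested). On the protein-coding scale they split into 4123 and 2134, with a median of 0.38. That fit held another set of rows, only the protein-coding rows and the members (12014 rows tested). The other scalings gave 2585 and 2995 (quantile), 2769 and 2865 (median of ratios), and 2961 and 2953 with the most abundant RNAs left out (13688 rows tested).

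Members of at least 150 nt, a choice made after seeing the data, gave 10 calls, a median of 0.522 and a share difference of 0.853 points. The main share difference of 1.73 points was 0.824 without SNORA48 and 8.24 with the most abundant RNAs left out, and the difference in snoRNA share of -5.97 points was -22.6 with rows listed at 0 kept. For these changes the cause was not tested.

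The replicate numbers are not labelled as pairs. With a replicate block 3766 rows, 36 members (29 higher, 7 lower), 10 H/ACA protein genes, 3 synthase genes and 15 host genes were called, and the member median was 0.771.

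Uncalled genes changed sign in 11 cases: KIAA0907 0.152 and KPNA4 0.259 on the protein-coding scale, EIF4A2 0.186 (quantile), 0.306 (protein-coding) and 0.372 (without undifferentiated replicate 1), NOP10 0.237, 0.247 and 0.0149 (quantile, protein-coding, without differentiated replicate 1), SNHG7 0.094 (without undifferentiated replicate 1), and MBD2 -0.262 and -0.0543 (without differentiated or undifferentiated replicate 2). With 1 library left out these genes ranged up to 1.21 (MBD2) and down to -0.875 (EIF4A2), -0.628 (NOP10) and -0.334 (SNHG7). In 181 other cases a single gene lost its call, in 31 it gained one and in 856 neither happened. Low members rest on few reads, and 2 libraries a stage limit every test.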

Other observations

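Outside the members, 19 SNORA or SCARNA rows were listed at 0 in both undifferentiated libraries and above 0 in both differentiated libraries, and 1 row showed the reverse. The share over all rows is not given here. At 135 nt 1 step was 9.70 and 11.6 TPM in the differentiated and 25.7 and 17.3 TPM in the undifferentiated libraries. SNORA2A (135 nt), among the 19, had 9.70 and 11.61 TPM, near 1 step and below 1 undifferentiated step. The part of the unequal steps in these counts was not tested. The Cajal body RNA SCARNA20 had 79.79 and 42.86 TPM in the differentiated libraries, and SCARNA8 had 34.19 and 42.86 TPM. SNORA72 had 76.58 and 27.09 TPM, and a SNORA31 row other than the member had 320.8 and 120.6 TPM. The single reverse row was SNORA30B, with 76.01 and 24.46 TPM in the undifferentiated libraries. In all, 136 and 120 of the 476 rows were above 0 in the differentiated and 92 and 95 in the undifferentiated libraries. No fold is given against a stage listed at 0. These rows were chosen after their values were seen.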
